A study of Rattus norvegicus with 20 samples.

Results

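Tracheal epithelial cells were compared with bladder, vaginal and thymic epithelial cells for how their transcriptome changed after they had been transplanted into newborn skin and recovered. The 16 samples of these tissues, of 20 in the series, were all used, since the labels give the tissue and the round of each; the other 4 are whisker follicle cells, which entered the estimate of the spread and are quoted as a level for reference. There were 8 groups of 2 samples: each tissue before transplantation and after recovery. The question was which genes changed differently in trachea from the mean of the changes in bladder, vagina and thymus, 3 tissues whose grafted cells the study treats as competent for hair follicles. The counts say nothing about follicles themselves.

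Every sample came from rats of the Sprague-Dawley background that express EGFP throughout the body. Donors were rats of postnatal age PN200 for trachea and vagina, PN201 for bladder (the dome), PN137 for thymus and PN57 for whisker. The whisker cells are clonal, of clone 7 before transplantation and of subclone 14 after it. Cells were grown on irradiated 3T3-J2 mouse feeder cells, grafted, recovered from skin grafts on nude mice, grown again on feeders and sorted for EGFP before RNA was taken. The recovered values are therefore those of cultured cells and not of cells inside the skin. The labels describe the dissection of grafts that held GFP-positive follicles, and no separate route for tracheal cells is given in the sources used here. Thymic cells were from frozen stock: the sample titles call them bulk, whereas the source names say clone 9 before and bulk 907 after recovery. Nothing says that the 2 samples of a group came from separate animals or grafts, so the p-values measure the spread between these samples, which may be technical.

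The epidermis and the hair follicle are built by basal keratinocytes that carry Tp63 and keratins 5 and 14. Cells that leave the basal layer of the epidermis switch to keratin 10 and then assemble a cornified envelope, lipid lamellae and corneodesmosomes, which make the skin barrier. Follicle formation relies on signals exchanged with the dermis through the Wnt, Eda, hedgehog and BMP pathways. Gli1 is a target gene of hedgehog signals, and Tbx1 is known from the stem cells of the follicle. Airway epithelium is instead pseudostratified, with basal, secretory and ciliated cells, and does not cornify in health.

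Libraries held 20723083 to 29824855 counts on genes, so that 3 counts, used as the floor of detection, corresponded to at most 0.143 CPM, counts scaled to a common library size. The 13302 genes that reached 1 CPM anywhere were tested with limma voom, and a gene was called at a Benjamini-Hochberg adjusted p under 0.05 with a log2 difference of at least 1, that is 2-fold. Symbols were available for 2311 of these genes, of which 1913 were usable names. The study had listed those genes because they differed from whisker cells in these same samples, so they are not a random draw. The difference in change was called higher in 3.95% and lower in 5.74% of all genes tested, against 8.73% and 13.4% of genes with a usable symbol, and counts over named lists are to be read against the latter pair. Of the 8 defining airway markers 1 had a symbol, Cyp2f4, a secretory cell cytochrome. It stood at 3.27 CPM before and 3.03 CPM after recovery in trachea. The highest of the other groups was vagina before, at 2.01 CPM. The sum over the 33 tested genes of a wider airway list averaged 1100 CPM in trachea in both rounds, the lowest of the groups. The others ranged from 1410 CPM in recovered vagina to 3400 CPM in recovered bladder. Whisker follicle cells, at 1580 CPM before and 1500 CPM after recovery, also exceeded trachea. Nkx2-1 was among the defining airway markers without a symbol, so the sum does not cover it. The paper reports this transcription factor in tracheal cells, still expressed after their recovery. The sum therefore cannot be read as a measure of airway identity. Basal Col17a1, Epcam and Cdh1 were at 140 CPM or more in every one of the 16 samples. The summed level of the 2 paired Y-linked genes was 182 to 257 CPM in bladder samples and at most 0.154 CPM in the other 3 tissues, so the sex of the donor and the tissue cannot be told apart for bladder.

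In trachea 584 genes rose (4.39% of those tested) and 1069 fell (8.04%). The corresponding numbers were 1343 (10.1%) and 1462 (11.0%) in bladder, 565 (4.25%) and 1002 (7.53%) in vagina, and 1130 (8.49%) and 916 (6.89%) in thymus. Genes with a usable symbol were called more often: 10.2% rose and 19.0% fell in trachea, 21.6% and 22.7% in bladder, 10.0% and 19.2% in vagina, and 19.0% and 14.0% in thymus, and list counts within a tissue are to be read against these. Across the 13302 genes the change in trachea was most like that in bladder, with a Pearson r of 0.542, against 0.137 for vagina and 0.125 for thymus. Between the other tissues r was 0.113 for bladder and vagina, 0.236 for bladder and thymus and -0.00254 for vagina and thymus. These are descriptions across genes, which are not replicates. Of the genes that fell in trachea, 59.6% also fell in bladder, and those were 43.6% of all bladder falls. Of the genes that rose in trachea, 57.7% also rose in bladder, and those were 25.1% of all bladder rises.

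The change in trachea was called higher than the mean change of the other 3 tissues for 526 genes and lower for 764 (limma voom), 1290 in all or 9.70%. Among the 764 lower genes, trachea itself fell for 510, did not pass the test for 244 and rose for 10. Among the 526 higher genes, trachea rose for 220, did not pass for 294 and fell for 12. A smaller set was set apart from each tissue singly: 71 higher and 169 lower genes were called against bladder, against vagina and against thymus alike. Set against single tissues, the change in trachea differed for 1673 genes from bladder (12.6%), 2293 from vagina (17.2%) and 2328 from thymus (17.5%). These contrasts share the trachea samples.

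Trachea was not the tissue whose response departed most from the rest. When bladder, vagina or thymus took its place against the mean of the other 3, the same test called 2293 genes (17.2%) for bladder, 2411 (18.1%) for vagina and 2303 (17.3%) for thymus, each more than the 1290 for trachea. The 4 contrasts share all their samples, so the counts stand side by side with no test between them. The order of trachea below the others was the same in each of the alternatives that gave these counts, including those that left out 1 sample.

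**Figure D1:**
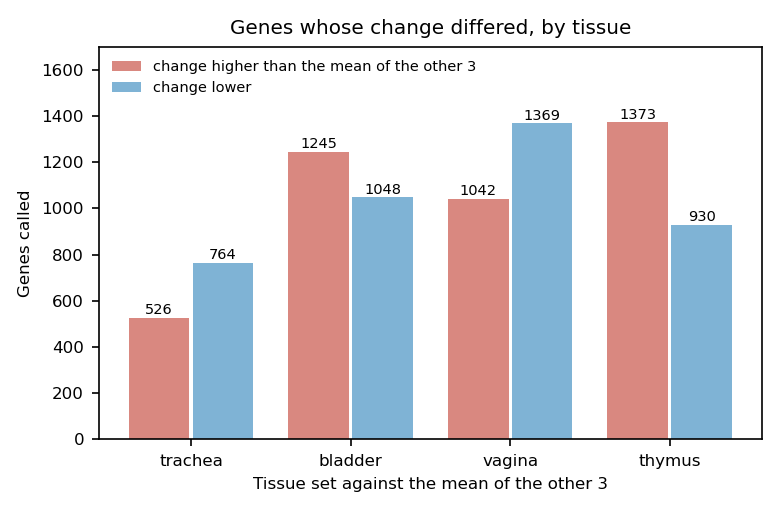
Number of genes (vertical axis) whose change after transplantation was called higher (red bars) or lower (blue bars) in the tissue on the horizontal axis than the mean change of the other 3 tissues. Trachea has 526 and 764, fewer in each direction than bladder (1245 and 1048), vagina (1042 and 1369) or thymus (1373 and 930).

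Levels also differed within each round. Before transplantation trachea stood apart from the mean of the other 3 tissues for 1637 genes (12.3%), 818 higher and 819 lower. After recovery it did so for 1767 genes (13.3%), 724 higher and 1043 lower. Of the 764 genes with the lower change, 281 differed in level after recovery without a called difference before, and 253 differed before without one after. Cnfn, below, was lower in trachea after recovery alone, Krt10 was lower in both rounds, and the collagens Col1a1 and Col3a1 were higher in trachea before alone.

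Genes that changed alike in the other 3 tissues were taken as their shared response. Trachea took no part in choosing these genes. A total of 81 genes rose in bladder, vagina and thymus alike. In trachea 37 of them rose too (45.7%, against 4.39% of all genes), 38 did not pass the test (46.9%) and 6 fell (7.41%). The difference in change was called lower for 38 of the 81. Of these, 6 rose in trachea by less than the mean of the others, 26 were not called and 6 fell. The median log2 change of the 81 genes was 1.07 in trachea, 2.93 in bladder, 1.70 in vagina and 2.18 in thymus. The rule held each of the last 3 at or above 1 for every gene and left trachea free, so a lower median in trachea follows in part from the choice of genes, and the same holds for the falls. A further 90 genes fell in all 3 tissues. In trachea 58 fell (64.4%, against 8.04% of all genes), 31 were not called (34.4%) and 1 rose (1.11%), with a median log2 change of -1.46 against -2.28 in bladder, -2.65 in vagina and -2.0 in thymus. The fall was called smaller in trachea for 33 of the 90 and larger for 10. The other tissues, each set against the 3 that remain, gave a range of shares: the rises common to the 3 others were called in bladder for 37 of 44 genes (84.1%), in thymus for 37 of 63 (58.7%) and in vagina for 37 of 127 (29.1%). Vagina also fell for 23 of its 127 genes. The share for trachea lay between those of thymus and vagina. For shared falls the shares were 65.9% in bladder, 36% in vagina and 31% in thymus, all 3 measured over other gene sets than those of trachea.

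**Figure D2:**
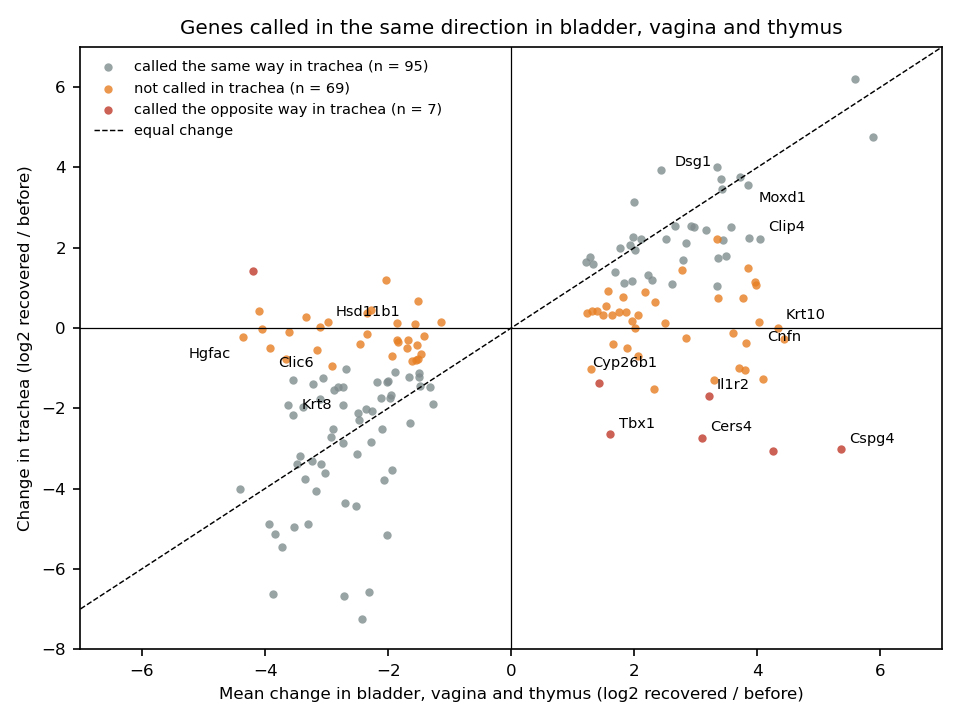
Each point is 1 of the 81 genes that rose or the 90 that fell in bladder, vagina and thymus alike, with the mean log2 change of those 3 tissues on the horizontal axis and the log2 change in trachea on the vertical axis; the dashed line marks equal change. Grey points were called the same way in trachea, orange points were not called and red points were called the opposite way, Cspg4, Cers4, Il1r2 and Tbx1 among them.

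Krt10, the keratin of suprabasal epidermis, rose in the other 3 tissues and not in trachea. Trachea held 1.00 and 1.17 CPM before and 1.27 and 0.948 CPM after recovery. Bladder went from 1.57 and 1.64 CPM to 235 and 223 CPM, vagina from 52.6 and 62.8 to 321 and 337 CPM, and thymus from 1.79 and 0.911 to 14.3 and 12 CPM. In trachea the samples of the 2 rounds overlapped, whereas in each of the other tissues both recovered samples lay above both earlier ones. The log2 change in trachea was 0.00 ± 0.47 (SE), and its difference from the mean of the others was -4.32 ± 0.50 (adjusted p = 9.03e-06). It was also called against each tissue singly, at -7.14 for bladder, -2.52 for vagina and -3.32 for thymus. Whisker cells held 1351 to 1716 CPM before and 821 to 917 CPM after recovery, so that every recovered tissue remained below them.

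Cnfn encodes cornifelin, a component of the cornified envelope. Its level in trachea was 3.31 and 3.38 CPM before and 3.52 and 3.83 CPM after recovery. Recovered bladder reached 81.8 and 75.1 CPM, recovered vagina 18.9 and 18.3 CPM and recovered thymus 7.39 and 8.45 CPM. All 6 recovered samples of the other tissues exceeded those of trachea, and the difference in change was -3.88 ± 0.72 (adjusted p = 0.000782). The pairs before transplantation were unlike each other in bladder (1.04 and 5.39 CPM) and thymus (0.516 and 0.0414 CPM). Against vagina alone the difference of -1.39 was not called.

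The 4 genes with a usable symbol that rose in the other 3 tissues and fell in trachea were at low levels there after recovery. Cspg4 encodes the NG2 proteoglycan, known from pericytes and from subsets of epidermal stem cells. Its trachea samples held 0.346 and 0.402 CPM before and 0 and 0.0730 CPM after recovery, a fall from 19 reads to 2 (log2 ratio -3.19, exact 95% counting interval -6.33 to -1.13). It rose to 8.67 and 10.3 CPM in bladder, 31.9 and 31.3 CPM in vagina and 2.21 and 2.44 CPM in thymus. Against the other tissues it differed by -8.38 ± 0.69 (adjusted p = 2.24e-07), or -6.85 with all levels held at or above the floor. Whisker cells held at most 1.64 CPM of Cspg4, less than any recovered sample of the other 3 tissues.

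Cers4 encodes a ceramide synthase of skin and its sebaceous glands. It went from 1.65 and 1.57 CPM to 0.141 and 0.328 CPM in trachea. In vagina it rose from 0.497 and 0.797 to 41.0 and 41.7 CPM, in bladder from 3.32 and 3.4 to 10.1 and 8.82 CPM and in thymus from 4.56 and 8.74 to 21.7 and 21.9 CPM. Whisker cells held 49.0 and 51.7 CPM before and 39.1 and 43.0 CPM after recovery. The difference in change was -5.83 ± 0.63 (adjusted p = 4.48e-06).

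Il1r2, the decoy receptor that binds interleukin-1 without signalling, fell from 0.423 and 0.443 CPM to 0.0939 and 0.146 CPM in trachea. It rose to 6.57 and 6.5 CPM in bladder, 3.81 and 2.96 CPM in vagina and 5.82 and 6.24 CPM in thymus. Whisker cells held 76.1 and 83.4 CPM before and 35.3 and 39.5 CPM after recovery. It differed in change by -4.89 ± 0.55 (adjusted p = 6.19e-06).

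Tbx1 is a T-box transcription factor of the pharyngeal region and of hair follicle stem cells. Trachea started above the other 3 tissues, at 7.04 and 6.52 CPM, and ended below them, at 1.36 and 0.875 CPM. Bladder moved from 3.4 and 6.08 to 9.09 and 9.47 CPM, vagina from 2.18 and 1.91 to 10.5 and 13.8 CPM and thymus from 3.10 and 2.44 to 7.81 and 5.51 CPM. The fall in trachea was -2.64 ± 0.44 on the log2 scale (adjusted p = 0.000171), and the difference in change was -4.25 ± 0.47 (adjusted p = 6.07e-06). Whisker cells held 135 and 154 CPM before and 83.3 and 107 CPM after recovery.

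**Figure D3:**
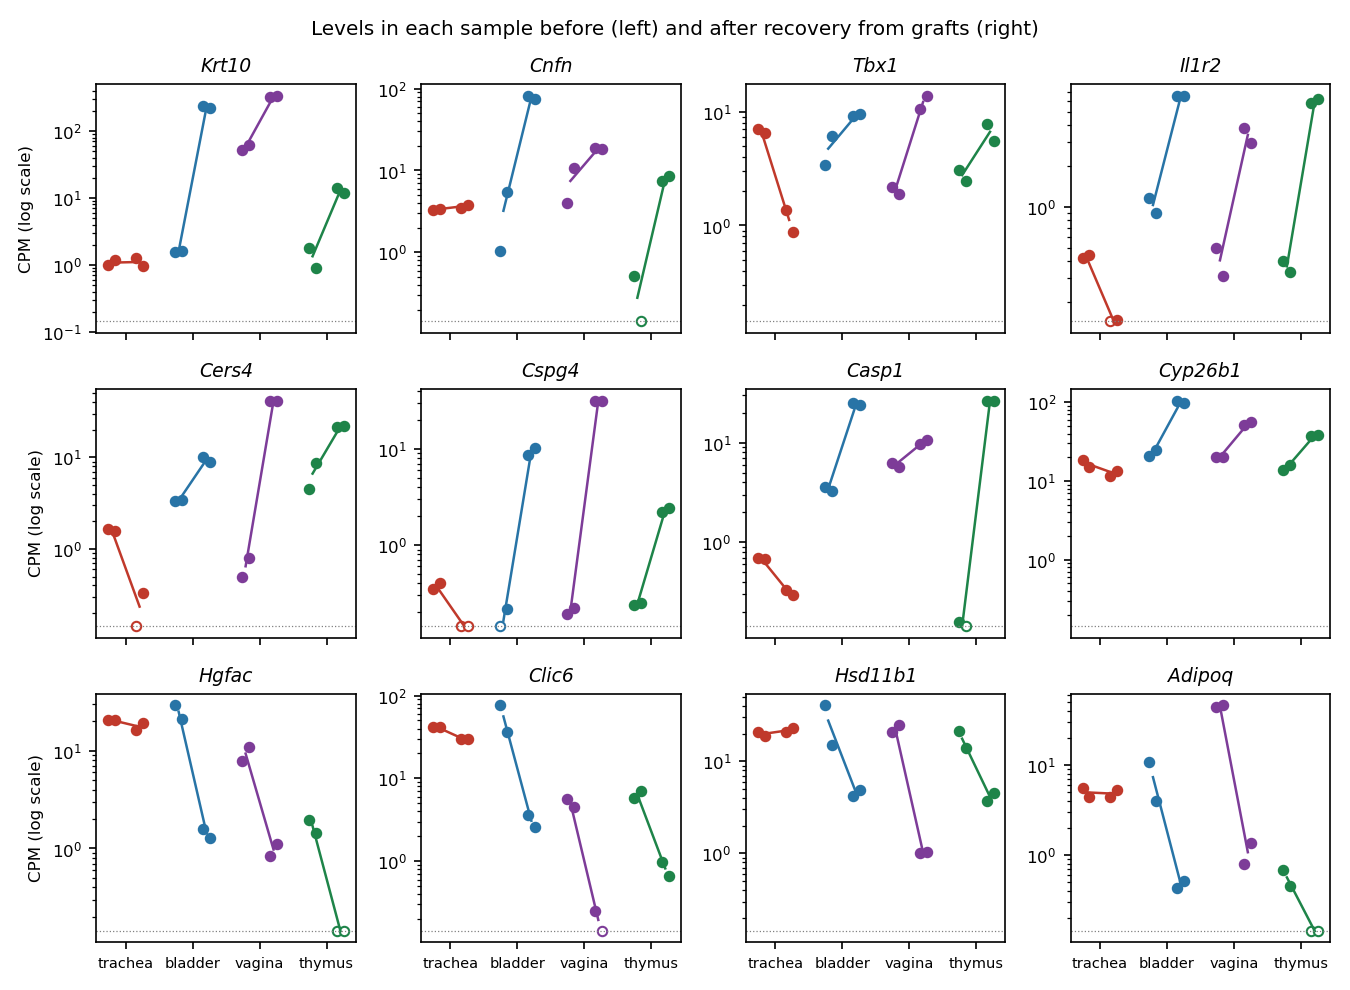
Level in CPM (log axis) of 12 genes in each of the 16 samples, with the 2 samples before transplantation on the left and the 2 recovered samples on the right of each tissue; lines join the group means, the dotted line is the floor of 3 counts (0.143 CPM) and open points lie below it. In trachea (red) Krt10 and Cnfn are near their first level after recovery, Tbx1, Il1r2, Cers4 and Cspg4 fall, and Hgfac, Clic6, Hsd11b1 and Adipoq stay near their first level while they drop in the other 3 tissues.

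Further shared rises were missing in trachea or smaller there than the mean rise of the other 3 tissues, though not smaller than in each of them. Cyp26b1, which breaks down retinoic acid, went from 18.4 and 15.2 CPM to 11.7 and 13.4 CPM in trachea and rose in each of the others, to 105 and 98.4 CPM in bladder, 51.5 and 55.4 CPM in vagina and 37.7 and 38.7 CPM in thymus (difference in change -2.06 ± 0.15, adjusted p = 6.61e-08). Abca12, the lipid transporter of lamellar granules, rose in trachea from 11.8 to 41.0 CPM on average, less than the mean of the others by -1.69 ± 0.28 (adjusted p = 0.000277). Clip4, a microtubule-binding protein, rose by 2.21 in trachea on the log2 scale and by 7.83 in bladder. Neither difference was called against the mean of vagina and thymus, where it was -0.67 for Abca12 and 0.05 for Clip4. Sbsn and Calml5, 2 genes of the differentiated epidermis, also rose in trachea. Calml5 rose more there than in vagina, by 2.52 against 1.12 on the log2 scale. Against the mean of vagina and thymus neither difference was called (-0.14 for Sbsn and 0.23 for Calml5). Against the mean of all 3 tissues both were called lower in change, at -1.62 and -1.04. Sbsn lost that call in 4 of the 16 fits without 1 sample (adjusted p up to 0.13, at -1.54 without sample 1 of trachea before) and Calml5 in 11 (adjusted p up to 0.14, at -1.02 without the same sample).

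Other shared rises were followed. Dsg1, the desmosomal cadherin of upper epidermis, rose from 0.538 and 0.563 CPM to 7.79 and 7.26 CPM in trachea, a log2 change of 3.72 ± 0.57 (adjusted p = 7.68e-05). Moxd1, a monooxygenase family member, rose from 4.84 and 5.23 CPM to 62.6 and 57.3 CPM. Gli1, the hedgehog target gene, rose from 0.538 and 0.161 CPM to 1.22 and 1.79 CPM in trachea (2.25 ± 0.43, adjusted p = 0.000599), beside 2.35 in bladder, 2.02 in vagina and 1.58 in thymus. The 2 sample pairs of trachea did not overlap for any of these genes. The difference in change from the other tissues was 0.32 ± 0.68 for Dsg1, -0.29 ± 0.15 for Moxd1 and 0.27 ± 0.51 for Gli1, and none passed the test.

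The list of 60 symbols of the epidermal barrier had 29 tested members. In trachea 14 rose (48.3%) and 0 fell, and in bladder 24 rose (82.8%). In vagina 12 rose (41.4%) and 2 fell (6.9%), and in thymus 15 rose (51.7%). Of genes with a usable symbol 10.2% rose in trachea, 21.6% in bladder, 10.0% in vagina and 19.0% in thymus. Compared with the other tissues, 8 of the 29 were called lower in change (27.6%, against 13.4%) and 3 higher (10.3%, against 8.73%). The median was -0.75, against -0.08 over genes with a usable symbol and 0.00 over all genes. The 8 were Krt10, Cnfn, Calml3, Klk7, Dsg4, Abca12, Sbsn and Calml5. Krt10, Cnfn and Calml3 kept the call without bladder among the reference tissues, and the others lost it. Calml3, a calmodulin-like protein of epithelia, held 71.8 and 69.8 CPM before and 40.6 and 37.4 CPM after recovery in trachea and rose in bladder and thymus, to 21.2 and 18.1 CPM and to 183 and 167 CPM. Its log2 change was -0.86 in trachea and -0.78 in vagina, neither called, and the difference was -3.32 ± 0.15 (adjusted p = 5.6e-10). Klk7, a protease that sheds corneocytes, held 0.385 and 0.0805 CPM before and 0.0939 and 0.328 CPM after recovery in trachea, and its call at -3.20 was lost in 6 of 16 fits without 1 sample (adjusted p up to 0.30, at -2.18 without sample 1 of trachea before). Dsg4, the desmosomal cadherin of the hair shaft, was at or under 1.23 CPM on average in all 8 groups, and its call at -2.11 was lost in 11 such fits (adjusted p up to 0.18, at -1.91 without sample 2 of trachea recovered). The 3 genes called higher were Casp14, the protease that processes filaggrin (1.11 ± 0.23, adjusted p = 0.00203), Csta, the envelope protein cystatin A (1.63 ± 0.52, adjusted p = 0.0254), and Arg1, an arginase of the upper epidermis (1.31 ± 0.22, adjusted p = 0.000326). Casp14 lost its call in 2 of the fits without 1 sample, where the difference shrank to 0.90 without sample 1 of trachea recovered, and Csta in 4 (adjusted p up to 0.20, at 1.06 without sample 2 of trachea before). Arg1 fell by 1.11 in vagina and did not pass in the other 3 tissues.

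**Figure D4:**
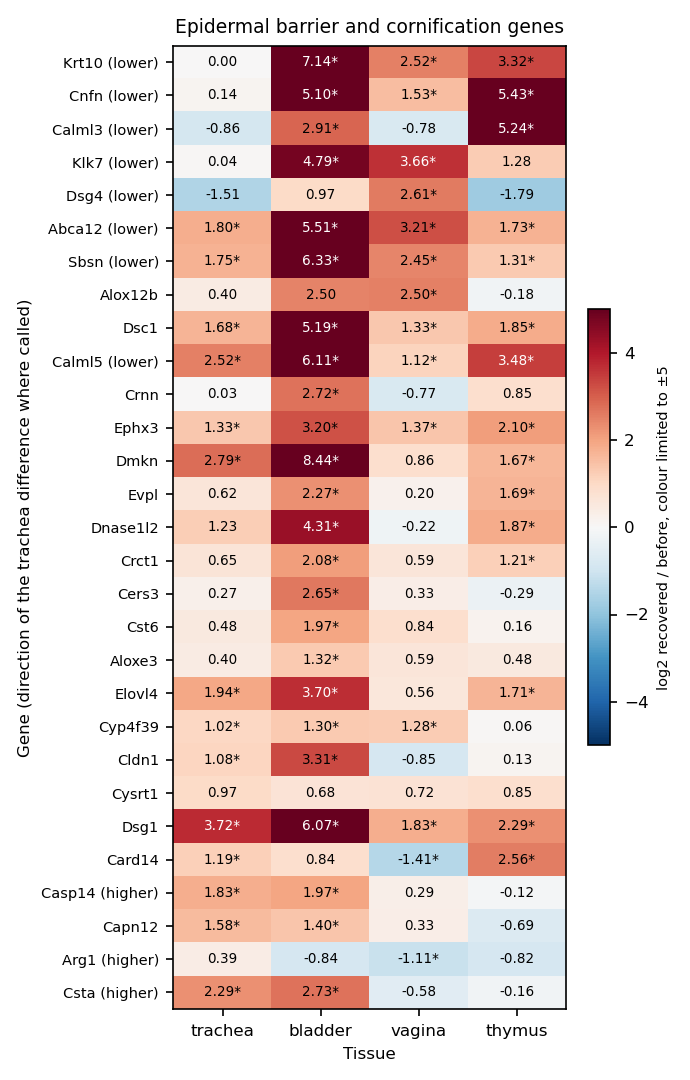
Log2 change after transplantation of the 29 tested barrier genes (vertical axis, ordered by the difference between trachea and the mean of the others) in the 4 tissues (horizontal axis), with the colour scale limited at a fixed size; an asterisk marks a called change and the word after a gene the direction of a called difference. The trachea column is near white for Krt10, Cnfn and Klk7 at the top, and red for Dsg1 (3.72) and Csta (2.29) further down.

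The list of 39 transcription factors of the hair follicle had 12 tested members. Of these, 6 rose (50%) and 1 fell (8.33%) in trachea, the same counts as in bladder, against 4 (33.3%) and 1 in vagina and in thymus. Of genes with a usable symbol 10.2% rose in trachea, 21.6% in bladder, 10.0% in vagina and 19.0% in thymus. Lhx2, Gata3, Hr, Foxn1 and Lef1 were not among the tested members, so the counts do not cover them. The paper reports from PCR that Lhx2, Gata3 and Hr stayed low in recovered tracheal cells, unlike in the other recovered tissues. Among the tested members a lower change was called for Tbx1 and Tfap2b and a higher one for Dlx5 and Dlx6. These were 16.7% each against 13.4% and 8.73% of genes with a usable symbol, with a median of 0.10. With so few members these shares are near the background, and the values given are those of single genes. Dlx3, a regulator of the hair shaft, rose from 0.609 to 2.39 CPM in trachea (1.95 ± 0.30, adjusted p = 8.19e-05). Bcl11b and Barx2 also rose, by 1.03 and 1.10 on the log2 scale. Gli2, the activator in the hedgehog pathway, was not called in any tissue: its log2 change was 0.05 in trachea and 0.60, 0.88 and 0.96 in bladder, vagina and thymus, and the difference of -0.76 ± 0.15 stayed under the 2-fold threshold. Dlx5 rose in trachea from 0.117 to 0.621 CPM, and its call was lost without sample 2 of trachea before (1.90, adjusted p = 0.09). Tfap2b averaged at or below 0.0769 CPM in each of the 8 groups but recovered vagina, which held 8.28 CPM, and the call was lost without sample 1 of trachea before (-2.59, adjusted p = 0.11) and in edgeR's quasi-likelihood test (adjusted p = 1). Held at or above the floor, its difference was -1.95. Dlx6 had no reads in trachea before or in bladder in either round, both its trachea groups averaged below the floor, and its call was lost in 3 fits without 1 sample (1.74, adjusted p up to 0.27, without sample 2 of trachea recovered) and in edgeR's test (adjusted p = 1).

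Among signals to the follicle, Bmp6 and Bmp2 differed. Bmp6, a bone morphogenetic protein of the follicle, held 2.23 and 2.98 CPM before and 3.57 and 2.85 CPM after recovery in trachea, and rose to 15.9 and 14.9 CPM in bladder and 16.3 and 15.7 CPM in thymus, while its change of -0.50 in vagina was not called (difference in change -1.83 ± 0.24, adjusted p = 3.35e-05). Bmp2 rose in vagina, from 2.65 to 11 CPM on average, and was called at -1.65 ± 0.28 (adjusted p = 0.000404). Fstl1, a secreted antagonist of BMP signals, fell in trachea from 37.5 and 41.9 CPM to 3.24 and 2.44 CPM, fell less in bladder and vagina, by 2.09 and 2.03 on the log2 scale, and rose in thymus from 4.68 and 4.27 to 26.9 and 27.9 CPM (-3.33 ± 0.28, adjusted p = 3.33e-07). Of 17 tested members of the BMP and TGF-beta list, 4 were called lower in change (23.5%) and 0 higher. Over genes with a usable symbol these shares were 13.4% and 8.73%, to be read beside the next lists as well. The Wnt list had 2 higher (11.8%, Apc2 and Dact3, inhibitors of the pathway) and 1 lower (5.88%, Dkk3) of 17. The list named for hedgehog, FGF and Eda had 1 higher (5.88%, Epgn) and 2 lower (11.8%, Ereg and Dusp4) of 17. Epgn and Ereg are EGF receptor ligands and Dusp4 is a MAP kinase phosphatase, so none of them is a hedgehog, FGF or Eda ligand or receptor. The Notch list had 2 lower (28.6%, Dlk1 and Dlk2) of 7. Without sample 2 of trachea recovered Dkk3 lost its call (-2.06, adjusted p = 0.065), and without sample 1 of bladder before Dlk2 lost its own (-0.96, under the 2-fold threshold). Of the BMP list, Inhba lost its call at -1.25 in 2 of the fits (-1.16, adjusted p up to 0.084, without sample 1 of trachea recovered).

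Among the losses that the other tissues shared, Hgfac had the largest difference of the named genes. This protease, which activates hepatocyte growth factor, held 20.5 and 20.6 CPM before and 16.1 and 19.0 CPM after recovery in trachea. It fell in bladder from 29.0 and 21.0 to 1.57 and 1.29 CPM, in vagina from 7.84 and 10.8 to 0.838 and 1.11 CPM and in thymus from 1.95 and 1.45 to 0.0425 and 0 CPM. The thymus fall was from 84 reads to 1 (log2 ratio -6.52, exact 95% counting interval -11.84 to -4.00). Both recovered trachea samples were above every recovered sample of the other tissues, and the difference in change was 4.13 ± 0.38 (adjusted p = 7.34e-07).

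Clic6, an intracellular chloride channel protein, held 41.9 and 42.0 CPM before and 29.5 and 29.5 CPM after recovery in trachea, while it dropped to 3.57 and 2.58 CPM in bladder, 0.251 and 0.139 CPM in vagina and 0.977 and 0.660 CPM in thymus (3.41 ± 0.50, adjusted p = 9.12e-05). Hsd11b1, which regenerates active glucocorticoid, stayed at 20.6 and 18.7 CPM before and 20.6 and 23.0 CPM after recovery in trachea, and fell in the others to between 1.00 and 4.86 CPM (3.13 ± 0.44, adjusted p = 5.95e-05). Adipoq, the hormone adiponectin, stayed at 5.58 and 4.39 CPM before and 4.37 and 5.25 CPM after, and fell in the other 3, to at most 1.36 CPM (4.01 ± 0.57, adjusted p = 7.22e-05). In thymus the Adipoq fall was from 28 reads to 3 (log2 ratio -3.35, interval -5.71 to -1.65), and against thymus singly the difference was not called. Clic6, Hsd11b1 and Adipoq were at or below 0.599 CPM in every whisker sample. Vgll1, a partner of TEAD factors, held 2.77 and 2.98 CPM before and 4.41 and 3.54 CPM after recovery in trachea and fell in the other 3 (2.71 ± 0.44, adjusted p = 0.000262).

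Some shared losses were followed in part. Krt8, a keratin of simple epithelia, fell in trachea from 1147 and 1095 CPM to 242 and 257 CPM, and in bladder from 1660 and 1700 to 276 and 281 CPM. The fall was steeper in vagina, from 212 and 274 to 5.2 and 6.12 CPM, and the difference of 1.37 ± 0.14 (adjusted p = 2.89e-06) was not called against the mean of bladder and thymus. Akap12, a kinase scaffold, fell in trachea by 1.78 and in vagina by 5.39 on the log2 scale, and its difference of 1.33 ± 0.12 came to 0.19 against the mean of bladder and thymus. Krt18 and Krt19, also of simple epithelia, fell in trachea by 3.42 and 3.36 on the log2 scale and fell in bladder and vagina. In thymus Krt18 rose by 1.2 and the change of Krt19 was 0.99, and the differences in change were -1.80 and -1.61. Neither was called against the mean of bladder and vagina. Krt4, a keratin of non-cornified stratified epithelia, went from 380 to 233 CPM in trachea and rose in bladder and thymus while it fell in vagina (-1.43 ± 0.40, adjusted p = 0.0135). That call was lost without either of 2 samples (adjusted p up to 0.062, at -1.36 without sample 2 of trachea before), and the difference was 0.44 against bladder and vagina.

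Among the lowest differences, Wipf1, a regulator of actin assembly, fell from 21.4 and 20.9 CPM to 0.0469 and 0.255 CPM in trachea. Recovered bladder held 36.1 and 35.1 CPM and recovered thymus 4.46 and 3.67 CPM with no called change, and vagina fell from at most 0.443 CPM (difference in change -6.30 ± 0.54, adjusted p = 3.49e-07). Hoxa3, a homeobox gene of anterior position, fell from 89 reads to 2 in trachea (log2 ratio -5.41, exact 95% counting interval -8.48 to -3.52). In thymus it stood at 9.30 CPM before and 10.4 CPM after recovery, and its difference was called against each tissue singly and against all 3 at -5.27 ± 0.48 (adjusted p = 6.42e-07). Hoxb3 fell with it in trachea, from 5.67 to 1.31 CPM (-1.94 ± 0.27, adjusted p = 5.09e-05). Cldn7, a tight junction claudin of simple epithelia, fell in trachea from 59.5 and 58.4 CPM to 0.376 and 0.255 CPM, more than in bladder and about as much as in vagina, while in thymus its change of 0.82 was not called (-4.10 ± 0.42, adjusted p = 2.10e-06). Bicd1, a motor adaptor, had 1.66 CPM before and no reads after recovery in trachea, which is at least 11.6-fold lower by the floor of 3 counts per library.

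Cyp27a1, a mitochondrial sterol hydroxylase, fell in trachea from 5.73 and 5.71 CPM to 0 and 0.255 CPM and in vagina, whereas it rose to 63.2 and 64.7 CPM in bladder and 78.0 and 81.3 CPM in thymus (-6.29 ± 0.99, adjusted p = 0.000189). Arhgap28, Cpne8, Bcat1, Cachd1 and B3gnt5 were the other genes with the lowest differences in change under the naming rule, at -5.37, -5.31, -6.12, -5.58 and -5.04. Of these, Bcat1, an enzyme of branched-chain amino acid breakdown, fell in trachea and bladder alike, from 695 reads to 3 in trachea (log2 ratio -7.79, interval -10.07 to -6.24).

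In the other direction, Fxyd4, a regulator of the sodium pump, rose in trachea from 0.884 and 1.33 CPM to 33.2 and 36.4 CPM. Bladder rose from 4.89 and 2.46 to 35.3 and 37.2 CPM, thymus rose to 3.44 and 2.94 CPM and vagina fell to 16.6 and 15.4 CPM (difference in change 3.78 ± 0.34, adjusted p = 6.23e-07). Antxrl, an anthrax toxin receptor relative, rose in trachea from 3.50 and 3.78 to 28.1 and 24.3 CPM and did not pass the test in the other 3 (2.96 ± 0.20, adjusted p = 2.54e-08). Ryr1, a calcium release channel, rose from 2.35 and 2.66 to 17.6 and 18.3 CPM in trachea, did not pass the test in bladder and vagina and fell in thymus (2.93 ± 0.21, adjusted p = 5.81e-08). For Antxrl and Ryr1 the recovered trachea samples lay above every other sample of the 16. Cndp1, Clec2e, Chn2 and Satb1 completed the 12 highest differences, at 4.11, 3.45, 2.82 and 2.73. Satb1, a chromatin organiser, held 2.12 and 2.90 CPM before and 2.91 and 2.23 CPM after in trachea and fell in bladder and vagina, in the latter from 227 reads to 3 (log2 ratio -6.35, interval -8.64 to -4.79).

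Of 34 tested genes of inflammation, 3 rose (8.82%) and 14 fell (41.2%) in trachea, where 10.2% and 19.0% of genes with a usable symbol did. In bladder 10 rose (29.4%) and 14 fell (41.2%), and in vagina 1 rose (2.94%) and 8 fell (23.5%). In thymus 16 rose (47.1%) and 5 fell (14.7%). The shares over genes with a usable symbol were 21.6% and 22.7% in bladder, 10.0% and 19.2% in vagina, and 19.0% and 14.0% in thymus. The difference was called lower for 11 (32.4%, against 13.4%) and higher for 1 (2.94%, against 8.73%), with a median of -0.95. Cxcl1, a chemokine that draws neutrophils, fell in trachea from 207 and 190 CPM to 32.8 and 37.5 CPM, and in thymus from 216 and 181 to 36.9 and 36.9 CPM, but was 289 and 360 CPM before and 274 and 290 CPM after in bladder (-1.65 ± 0.16, adjusted p = 1.06e-06). Cxcl2 fell from 91.8 and 88.3 CPM to 13.9 and 16 CPM in trachea and did not pass the test in the other 3 tissues (-2.21 ± 0.22, adjusted p = 1.87e-06). Cxcl3 fell in trachea, from 701 and 645 to 101 and 110 CPM, fell in bladder and vagina and rose in thymus, from 99.2 and 72.7 to 385 and 366 CPM (-2.37 ± 0.19, adjusted p = 2.10e-07). Ptgs2, the inducible cyclooxygenase, had its highest level of the 16 samples in trachea before transplantation, at 586 and 574 CPM, and fell to 189 and 190 CPM (-1.96 ± 0.16, adjusted p = 2.14e-07). Cxcl1, Cxcl2 and Cxcl3 are near copies of each other, so that reads shared between them may have been set aside as not unique.

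Casp1, the protease that matures interleukin-1 beta, and Cxcl17, a mucosal chemokine, had the lowest differences of this list. Cxcl17 averaged 1.32 CPM in trachea before and had no reads after, which is at least 9.25-fold lower by the floor, and it was under the floor in the other 6 groups (-5.32 ± 0.77, adjusted p = 9.06e-05). That call was lost in edgeR's quasi-likelihood test (adjusted p = 1) and in DESeq2 (0.211), and the difference held at the floor was -3.21. For Casp1 trachea held 0.692 and 0.684 CPM before and 0.329 and 0.292 CPM after recovery. Recovered bladder held 24.8 and 23.8 CPM, recovered vagina 9.68 and 10.5 CPM and recovered thymus 26.0 and 26.4 CPM. The difference in change was -5.21 ± 0.53 (adjusted p = 2.25e-06), and it was called against each tissue singly. Cxcl6, Cx3cl1, Ccl2 and Ccl7 fell in both trachea and bladder, and against the mean of bladder and vagina their differences of 0.05, 0.15, -1.25 and -1.62 were not called. Ccl20, a chemokine for dendritic cells, lost its call at -2.05 in 10 of 16 fits without 1 sample (adjusted p up to 0.18, at -1.64 without sample 1 of trachea recovered), Cx3cl1 in 3 (adjusted p up to 0.12, at -1.63 without sample 2 of trachea recovered) and Ccl7 in 1 (0.054, at -2.13 without that sample). Csf3, the granulocyte growth factor, was the gene with a smaller fall, at 1.04 ± 0.24 (adjusted p = 0.00402), lost in 4 of the fits (0.96 without sample 2 of trachea recovered).

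The sequences at the start of 3 of these chemokine genes are shown because the genes lie in one stretch of chromosome 14 and all fell in trachea. They run from 250 bases before to 50 bases after the annotated start (RefSeq, build GRCr8, all on the minus strand of chromosome 14: Cxcl1 at chr14:17479272-17479571, Cxcl2 at chr14:17467206-17467505, Cxcl6 at chr14:17596368-17596667). Capitals mark matches, on either strand, to a form of the site bound by NF-kappaB, GGG and TTTCC with any 2 bases between them.
Cxcl1: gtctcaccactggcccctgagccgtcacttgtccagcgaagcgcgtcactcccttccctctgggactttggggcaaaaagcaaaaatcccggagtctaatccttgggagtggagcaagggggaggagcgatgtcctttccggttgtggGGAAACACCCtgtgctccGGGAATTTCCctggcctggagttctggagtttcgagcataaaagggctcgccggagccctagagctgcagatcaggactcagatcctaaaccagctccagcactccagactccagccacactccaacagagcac
Cxcl2: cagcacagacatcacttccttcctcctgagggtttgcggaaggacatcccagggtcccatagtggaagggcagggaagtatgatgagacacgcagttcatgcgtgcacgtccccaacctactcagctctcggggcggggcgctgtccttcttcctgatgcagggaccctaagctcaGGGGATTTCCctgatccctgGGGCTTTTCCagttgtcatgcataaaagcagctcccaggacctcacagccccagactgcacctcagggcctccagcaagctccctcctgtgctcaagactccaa
Cxcl6: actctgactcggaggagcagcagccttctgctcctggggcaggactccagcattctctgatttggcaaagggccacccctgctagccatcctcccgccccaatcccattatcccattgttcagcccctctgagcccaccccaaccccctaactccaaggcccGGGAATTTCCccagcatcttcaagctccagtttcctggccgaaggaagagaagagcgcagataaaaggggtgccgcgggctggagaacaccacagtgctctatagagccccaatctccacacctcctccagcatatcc
Of the 11 inflammation genes with a lower change, 9 had a sequence in that table and 4 held a match, Ccl20 being the fourth, against 1.53% of all 33469 promoters of the same length. The genes come from a list chosen for inflammation, and its other members were not scanned. Whether the match goes with the lower change in trachea was therefore not tested. A match describes letters and is not evidence of binding.

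**Figure D5:**
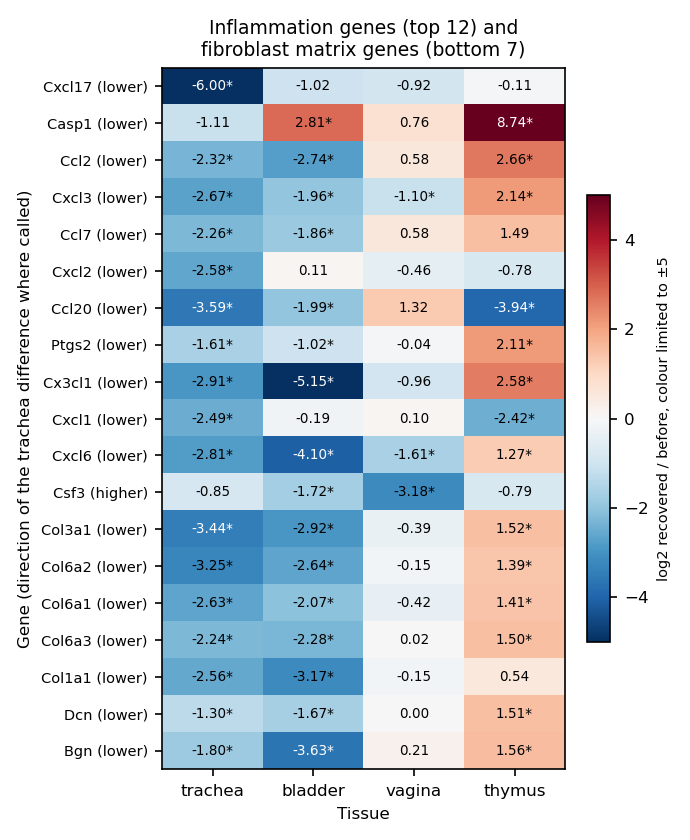
Log2 change after transplantation in the 4 tissues (horizontal axis) of the 12 inflammation genes and, below them, the 7 fibroblast matrix genes whose difference between trachea and the other tissues was called; an asterisk marks a called change. Trachea is blue throughout, bladder is blue for the 7 matrix genes, vagina is near white for them and thymus is red for all 7, of which Col1a1 was not called.

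Markers of other cell types moved with these results. Of 12 tested fibroblast genes, 8 fell in trachea (66.7%) and 9 in bladder (75%), 0 changed in vagina, and 6 rose in thymus (50%). Of genes with a usable symbol 19.0% fell in trachea, 22.7% fell in bladder and 19.0% rose in thymus. The difference in change was called lower for 7 (58.3%, against 13.4%): Col1a1, Col3a1, Col6a1, Col6a2, Col6a3, Dcn and Bgn. The summed level of the 12 genes was 841 to 893 CPM in trachea before and 557 to 558 CPM after, 518 to 629 and 331 CPM in bladder, 522 to 532 and 748 to 769 CPM in vagina, and 494 to 580 and 646 to 674 CPM in thymus. In the clonal whisker cells it was 1390 to 1400 CPM before, the highest of the groups, and 486 to 514 CPM after. The sum therefore cannot be read as a measure of fibroblast content. Col3a1, a fibrillar collagen, went from 100 and 105 CPM to 12.4 and 7.51 CPM in trachea, a log2 change of -3.44 ± 0.23, and the difference was -2.85 ± 0.29 (adjusted p = 1.96e-06). Bgn and Dcn lost their calls in 5 and 2 of the fits without 1 sample (adjusted p up to 0.16, at -0.94, and 0.12, at -0.94, both without sample 2 of trachea recovered). In bulk RNA fewer cells of a type and less RNA per cell cannot be told apart. Whether the fibroblast genes had a part in the falls of the chemokines was not tested. None of the 4 defining endothelial markers had a symbol. Adgrf5, a member of the wider endothelial list, fell from 11 to 0.185 CPM in trachea and from 1.21 to 0.220 CPM in bladder. It averaged under the floor in vagina and thymus. Of the 6 defining immune markers 3 had a symbol. Cd68, also a lysosomal protein of epithelial cells, rose in trachea from 11.7 to 58.5 CPM (difference 2.33 ± 0.13, adjusted p = 4.03e-09). It also rose in bladder, from 14 to 54 CPM, stood at 27.7 and 28 CPM in thymus and fell in vagina from 61.4 to 15.7 CPM. In trachea Cd53 averaged at most 0.256 CPM and Coro1a went from 3.20 to 0.451 CPM.

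Basement membrane and adhesion genes had 8 lower (23.5%, against 13.4% of genes with a usable symbol) and 1 higher (2.94%, against 8.73%) of 34 tested members. Col4a1 and Col4a2, the collagen chains of every basement membrane, fell in trachea from 53.4 and 57.5 CPM to 16.8 and 11.6 CPM and from 28.7 to 7.02 CPM on average. They fell in bladder and rose in vagina and thymus, to 56.5 and 20.4 CPM for Col4a1. The difference was -2.42 ± 0.19 for Col4a1 (adjusted p = 1.1e-07) and -2.89 ± 0.21 for Col4a2 (adjusted p = 7.24e-08). Dsg3, the desmosomal cadherin of basal cells, rose in bladder from 151 to 1620 CPM on average, and its log2 change of 0.43 in trachea was not called (-1.12 ± 0.11, adjusted p = 1.86e-06), a difference that came to -0.18 without bladder.

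Of 44 tested cell cycle genes, 1 rose (2.27%) and 11 fell (25%) in trachea. In bladder 4 fell (9.09%), in vagina 18 rose (40.9%) and in thymus 7 fell (15.9%). Over usable symbols 10.2% rose and 19.0% fell in trachea, 22.7% fell in bladder, 10.0% rose in vagina and 14.0% fell in thymus. The difference in change was lower for 8 (Bub1b, Ccnb1, Cdc20, Cenpa, Cenpe, Cenpf, Clspn and E2f8) and higher for Aurkb, with a median of -0.59. These shares were 18.2% and 2.27%, against 13.4% and 8.73% of genes with a usable symbol. The share with a lower change was thus near the background. Cenpa, the centromeric histone, had a difference of -1.87 ± 0.38 (adjusted p = 0.00138) and was the one of the 8 still called without vagina among the reference tissues (-1.08, adjusted p = 0.0471). Aurkb, a mitotic kinase, rose from 48.6 to 130 CPM in trachea and fell in thymus from 536 to 158 CPM (1.79 ± 0.17, adjusted p = 8.35e-07). Clspn and E2f8 lost their calls in 3 and 5 of the fits without 1 sample (-1.23, adjusted p up to 0.088, and -0.89, adjusted p up to 0.22, both without sample 2 of trachea recovered). Ccnb1 lost it in 2 (-0.97 without sample 1 of vagina before).

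Of 33 tested airway genes, 4 rose (12.1%, against 10.2% of genes with a usable symbol) and 9 fell (27.3%, against 19.0%) in trachea. The difference in change was higher for 4 and lower for 4 (12.1% each, against 8.73% and 13.4%). Of the 4 that were higher, Agr3, Cfap100 and Duox2 lost their calls in 8 of 15, 3 of 16 and 2 of 16 fits without 1 sample, Agr3 and Cfap100 also in DESeq2 and Agr3 in edgeR's test. Dnai2, a dynein arm protein of cilia, rose in trachea from 1.85 to 13.8 CPM and rose in vagina too (2.56 ± 0.45, adjusted p = 0.000486). Aqp3, a water channel of basal cells and of epidermis, held 103 and 103 CPM before and 102 and 101 CPM after in trachea, and rose in bladder to 377 and 378 CPM and in thymus to 330 and 333 CPM (-1.43 ± 0.15, adjusted p = 3.77e-06). Aqp5, a water channel of secretory cells, fell in trachea from 20.8 to 0.451 CPM and in thymus from 6.35 to 0.0755 CPM, and rose in bladder from 1 read to 28 (log2 ratio 4.98, interval 2.39 to 10.34) (-5.13 ± 0.62, adjusted p = 1.45e-05). Pigr, which carries immunoglobulins across the epithelium, fell in trachea from 4.26 to 0.524 CPM (-2.16 ± 0.52, adjusted p = 0.00522), a call lost without sample 2 of trachea recovered (-1.89, adjusted p = 0.064). Foxa1 and Isl1, developmental transcription factors, were not called in trachea, at 19.5 to 11.6 CPM and 12.4 to 9.86 CPM, and for neither was the difference in change called (-0.12 ± 0.32 and -0.19 ± 0.27).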

How the data were processed

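The labels and methods give poly(A) RNA-seq (TruSeq Stranded mRNA) of EGFP-sorted cultured rat cells. Raw read counts per gene were deposited by the authors, who per the labels and methods trimmed reads with cutadapt 1.8, aligned them with STAR 2.5.2b to Rnor 6.0 and counted with HTSeq 0.6.1 on Ensembl genes. The deposited tallies of reads outside genes stayed out of library sizes: 28.8% to 35.8% of all reads were not unique, 8.5% to 13.4% had no feature and 0.378% to 0.835% were ambiguous, so genes with near copies are undercounted.

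Groups came from the labels. Of 32494 genes, the 13302 that reached 1 CPM in any of the 20 samples were normalised (TMM, edgeR 4.0.16) and fitted with limma 3.58.1 voom in R 4.3.3 over all 10 groups, with 10 residual degrees of freedom. The main contrast was the change in trachea minus the mean of the 3 other changes. Calls needed a Benjamini-Hochberg adjusted p under 0.05 and an absolute log2 difference of at least 1; 5356 genes had an unadjusted p under 0.05. CPM per sample are given without a prior count, and exact intervals and the floor of 3 counts cover counting error only. The scripts were tested on simulated counts with known changes. Gene IDs were paired with symbols through identifiers in the study's supplementary gene lists, whose values were not used.

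The genes named are the 12 highest and 12 lowest differences among called genes with a usable symbol, a trachea change outside the range of the others and a mean of at least 10 CPM in 1 group; of the shared rises and falls, up to 8 per direction that lagged and 4 that were followed; up to 10 with opposite calls; and called members of the gene lists, with every measured member of the follicle transcription factor and barrier lists. Some genes that the rule names are not reported here. Values of other named genes were chosen after they were seen. Members and lists were chosen with earlier results of these data known. Same-numbered samples did not deviate together (r from -0.112 to 0.146, median 0.0167 over 28 pairs of groups, 5 of them over 0.1), so the numbers do not pair samples. Alternatives were edgeR's quasi-likelihood test, DESeq2 1.42.0, its size factors, other filters, sample weights, the 16 samples alone, a replicate block, a log2 threshold of 2, other reference tissues and leaving out each sample.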

Additional observations from a re-analysis of the deposited data

Results flagged for a closer look

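The change after transplantation in trachea was tested against the mean change of bladder, vagina and thymus, and the named genes reported here for which that test (limma voom) passed are given with the log2 difference. Groups had 2 samples, too few to examine single samples as far from their group. Among the hair follicle transcription factors the difference was 3.22 for Dlx6, 2.28 for Dlx5, -4.16 for Tfap2b and -4.25 for Tbx1. In the list of follicle stem cell and placode genes it was -1.03 for Ctgf, -1.65 for Bmp2, -1.83 for Bmp6 and -2.41 for Dkk3. For epidermal barrier the values were 1.63 for Csta, 1.31 for Arg1, 1.11 for Casp14, -1.04 for Calml5, -1.62 for Sbsn, -1.69 for Abca12, -2.11 for Dsg4, -3.20 for Klk7, -3.32 for Calml3, -3.88 for Cnfn and -4.32 for Krt10. Among the keratins the difference was 1.37 for Krt8, -1.43 for Krt4, -1.61 for Krt19 and -1.80 for Krt18. In the list of airway genes it was 2.56 for Dnai2, 2.48 for Agr3, 1.74 for Cfap100, 1.63 for Duox2, -1.43 for Aqp3, -2.16 for Pigr, -5.13 for Aqp5 and -5.32 for Cxcl17. For Hox genes the values were -1.94 for Hoxb3 and -5.27 for Hoxa3. Among the Wnt genes the difference was 1.72 for Dact3 and 1.43 for Apc2. In the list of BMP and TGF-beta genes it was -1.25 for Inhba and -3.33 for Fstl1. For Notch genes the values were -1.18 for Dlk2 and -1.96 for Dlk1. In the list named for hedgehog, FGF and Eda the difference was 1.65 for Epgn and -1.23 for Ereg, both EGF receptor ligands, and -1.26 for the phosphatase Dusp4. In the list of retinoid genes it was 2.44 for Bco2, 1.18 for Dhrs9, 1.05 for Crabp2, -2.06 for Cyp26b1 and -3.37 for Cyp1b1. For genes of foreign compound metabolism the values were 2.15 for Gsta4, 1.22 for Gstt3, 1.06 for Cyp4f5, -3.12 for Cyp2b1, -5.41 for Akr1c14 and -5.44 for Aox3. Among the inflammation genes the difference was 1.04 for Csf3, -1.33 for Cxcl6, -1.65 for Cxcl1, -1.73 for Cx3cl1, -1.96 for Ptgs2, -2.05 for Ccl20, -2.21 for Cxcl2, -2.33 for Ccl7, -2.37 for Cxcl3, -2.49 for Ccl2 and -5.21 for Casp1. In the list of interferon and antigen presentation genes it was 2.89 for Apol3, 1.43 for Cd274, 1.16 for Apol9a, 1.05 for Dhx58, -1.21 for Cd74 and -2.42 for Cxcl10. For cell cycle genes the values were 1.79 for Aurkb, -1.07 for Ccnb1, -1.19 for Bub1b, -1.19 for E2f8, -1.24 for Clspn, -1.25 for Cenpf, -1.27 for Cenpe, -1.31 for Cdc20 and -1.87 for Cenpa. Among the basement membrane and adhesion genes the difference was 2.07 for Col4a4, -1.12 for Dsg3, -1.75 for Cldn6, -2.42 for Col4a1, -2.58 for Chl1, -2.89 for Col4a2, -2.90 for Cdh2 and -4.10 for Cldn7. In the list of fibroblast genes it was -1.18 for Bgn, -1.25 for Dcn, -1.64 for Col1a1, -1.99 for Col6a3, -2.27 for Col6a1, -2.78 for Col6a2 and -2.85 for Col3a1.

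Of the remaining named genes the change was higher in trachea by 4.13 for Hgfac, 4.11 for Cndp1, 4.01 for Adipoq, 3.78 for Fxyd4, 3.45 for Clec2e, 3.41 for Clic6, 3.13 for Hsd11b1, 2.96 for Antxrl, 2.93 for Ryr1, 2.82 for Chn2, 2.73 for Satb1, 2.71 for Vgll1, 2.33 for Cd68, 2.27 for Chst10, 2.06 for Cd28, 1.71 for Tmem171 and 1.33 for Akap12 on the log2 scale. It was lower for the following, with differences of -8.38 for Cspg4, -6.30 for Wipf1, -6.29 for Cyp27a1, -6.12 for Bcat1, -5.83 for Cers4, -5.58 for Cachd1, -5.37 for Arhgap28, -5.31 for Cpne8, -5.10 for Bicd1, -5.04 for B3gnt5, -4.89 for Il1r2, -4.62 for Wt1, -4.31 for Adgrf5, -2.75 for Fam149a, -2.72 for Cytip, -1.83 for Clip4, -1.75 for Cplx2, -1.61 for Dmd, -1.59 for Chst11 and -1.15 for Cdkn2c.

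Some of these genes lost the call without 1 sample. They are given by the sample whose absence left the highest adjusted p, each with its log2 difference there and the number of the 16 such fits (15 for Agr3) in which the call was lost. Without sample 2 of trachea recovered they were Bgn (-0.94, 5), Ccl7 (-2.13, 1), Cd74 (-0.92, 12), Cdkn2c (-0.98, 1), Cfap100 (1.38, 3), Clspn (-1.23, 3), Csf3 (0.96, 4), Cx3cl1 (-1.63, 3), Cytip (-2.17, 2), Dcn (-0.94, 2), Dkk3 (-2.06, 1), Dlx6 (1.74, 3), Dsg4 (-1.91, 11), E2f8 (-0.89, 5), Fam149a (-1.32, 1) and Pigr (-1.89, 1). Without sample 1 of trachea before they were Apol9a (0.92, 3), Calml5 (-1.02, 11), Cd28 (1.84, 10), Duox2 (1.63, 2), Klk7 (-2.18, 6), Sbsn (-1.54, 4) and Tfap2b (-2.59, 1). Without sample 1 of trachea recovered they were Agr3 (2.32, 8), Casp14 (0.90, 2), Ccl20 (-1.64, 10), Cldn6 (-1.40, 7), Cplx2 (-1.22, 1) and Inhba (-1.16, 2). Without sample 2 of trachea before they were Csta (1.06, 4), Ctgf (-0.97, 5), Dlx5 (1.90, 1) and Krt4 (-1.36, 2). Without sample 1 of bladder before they were Cyp4f5 (0.98, 1), Dhx58 (0.94, 1) and Dlk2 (-0.96, 1). Without sample 1 of thymus before it was Crabp2 (0.97, 1). Without sample 1 of vagina before it was Ccnb1 (-0.97, 2). In edgeR's quasi-likelihood test the calls of Adgrf5, Agr3, Akr1c14, Cxcl17, Dlx6, Dsg4, Fam149a and Tfap2b were lost, and in DESeq2 those of Agr3, Bgn, Cfap100, Cldn6, Cxcl17, Dsg4, Fam149a and Krt4. Some values rest on groups below the floor of 3 counts. With group means held at or above it the difference was 1.07 for Agr3, -2.40 for Akr1c14, -2.85 for Aox3, 1.60 for Apol3, -2.76 for Bicd1, 0.875 for Cd28, 1.35 for Chst10, -3.21 for Cxcl17, 1.55 for Dlx6 and -1.95 for Tfap2b.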

How the results depend on the processing

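With DESeq2, its size factors, edgeR's quasi-likelihood test, no filter, a stricter filter, the 16 samples alone or sample weights, all 20 counts kept within 1.5 times their value. So did leaving out each of the 16 samples, where the genes with a higher change ranged from 454 to 598 and those with a lower change from 593 to 836. With the replicate number as a block, which does not pair these samples, 542 genes were higher and 780 lower, and no count moved by over 1.5 times. Sample weights took the shared rises from 81 to 54, at that limit, with 26 followed and 27 lagging. They took the changes called in thymus from 2046 to 1589. The sample pairs lay furthest apart in thymus and bladder before transplantation. There the median absolute log2 difference was 0.242 and 0.188, against at most 0.125 in the other groups.

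Raising the log2 threshold to 2 left 161 genes higher and 398 lower, by construction. The changes then called were 725 in trachea, 1233 in bladder, 682 in vagina and 885 in thymus. Trachea differed for 769 genes from bladder, 1053 from vagina and 1166 from thymus. In its place bladder gave 971, vagina 1041 and thymus 1067, and the levels differed for 623 before and 725 after. Shared rises were 17 (5 followed, 11 lagging) and shared falls 22 (10 followed, 9 lagging).

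The reference tissues mattered more. Without bladder 832 genes were higher, with 154 shared rises (90 lagging) and 219 shared falls (88 followed, 118 lagging). Without vagina there were 363 shared rises (127 followed, 215 lagging) and 325 shared falls (161 followed, 135 lagging). Without thymus there were 151 shared rises (63 followed, 74 lagging) and 305 shared falls (187 followed, 121 lagging). With fewer tissues required to agree, these sets are larger by construction.

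The sign turned without bladder for Calml5 (0.23), Clip4 (0.0545), Dlk2 (0.25), Dmkn (1.52) and Ereg (0.00406), without vagina for Col4a4 (-1.14) and Dmd (0.41), and without thymus for Cx3cl1 (0.15), Cxcl6 (0.0461), Dusp4 (0.12) and Krt4 (0.44). The cause was not tested. Of 133 called named genes, 62 kept direction and call under each of 27 alternatives, 94 did so without any 1 of the 16 samples, and 39 lost the call without at least 1. Groups of 2 limit the precision of each change.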
